A study of Arabidopsis thaliana with 6 samples.

Results

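The chloroplast genome of Arabidopsis thaliana had 133 rows in the count table, and 117 of them averaged 10 counts or more in wild-type plants or in prp40c-1 plants and are described here. Of these, 112 reached that mean in both genotypes, 5 in wild-type plants alone and 0 in prp40c-1 alone. The 16 rows that stayed below it were all tRNA genes. Just above the minimum lay trnF (10.0 counts in the higher genotype), trnW (10.7) and trnC (12.7), and just below it trnR (ATCG00110, 8.33) and trnT (ATCG00260, 7.33). The 117 members included 14 genes of the inverted repeat, a stretch of 26264 bases present in the chloroplast genome as a pair of mirrored copies, and reads from these genes were counted at both copies: in 8 of the 14 pairs the counts of both rows were identical in all 6 libraries, and the largest difference in any library was 2.98%. Counted once, the members were 103 genes of 22182 tested in the whole genome. PRP40C is a nuclear gene related to yeast Prp40, a protein of the U1 particle that recognises the start of introns. The compared groups were 3 libraries of wild-type plants (Col-0) and 3 of homozygous prp40c-1 mutants in the same ecotype, which carry a T-DNA insertion in PRP40C, and prp40c-1 is the only mutant allele in these libraries. Both were untreated whole seedlings described as 2 weeks old, sown on Murashige and Skoog agar, kept in the dark at 4 °C for 4 days, grown at 22 °C under continuous white light of 50 μmol per m2 per s and harvested after 10 to 14 days. PRP40C itself was at 22.6 to 28.1 CPM (counts scaled to a common library size of 1000000) in wild-type plants and at 11.8 to 14.0 CPM in prp40c-1 (log2 fold change −0.97 ± 0.11 SE, adjusted p = 2.1e-05). These counts cover the whole gene and do not separate full-length from shorter RNA. By RT-PCR, the paper reports null expression of the wild-type mRNA, and its supplement describes full-length mRNA as strongly reduced.

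The chloroplast is the compartment of photosynthesis in plant cells, and it keeps a small circular genome inherited from its bacterial ancestor. That genome encodes the core subunits of photosystems I and II, of the cytochrome b6f complex, of the ATP synthase and of the NDH complex, the large subunit of Rubisco, and much of the machinery that expresses them: rRNAs, tRNAs, ribosomal proteins and the core of a bacterial-type RNA polymerase called PEP. A nucleus-encoded phage-type polymerase transcribes a further set of genes, among them the genes of PEP. Chloroplast introns are removed without the spliceosome, and most chloroplast genes lie in operons whose transcripts are cut into smaller RNAs. Poly(A) tails on chloroplast RNA mark it for degradation, unlike the tails of nuclear mRNA. These libraries were made from poly(A)-purified RNA, so the values below describe the chloroplast RNA that stayed in such a preparation, and in whole seedlings fewer chloroplasts and less RNA per chloroplast cannot be told apart.

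4 stretches of the chloroplast genome are printed to accompany the results. They are a ribosomal and a transfer RNA gene that fell, the psbM coding region (highest log2 fold change of the members) and a stretch before psbA. The last holds the letters TTGACA, the sequence of the bacterial promoter element recognised by PEP. All 4 were read from the RefSeq chloroplast sequence of assembly TAIR10.1, on which 125 of the 133 rows have the same start and end as in the count table. The capitals mark the start and stop codons of psbM and the TTGACA before psbA.
rrn4.5S (chrPt:107599-107701, plus strand, first copy): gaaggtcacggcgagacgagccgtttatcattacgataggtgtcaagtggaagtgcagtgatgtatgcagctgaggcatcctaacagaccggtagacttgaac
trnH (chrPt:4-76, minus strand): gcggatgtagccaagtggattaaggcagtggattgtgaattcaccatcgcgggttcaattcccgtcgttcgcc
psbM (chrPt:28707-28811, minus strand): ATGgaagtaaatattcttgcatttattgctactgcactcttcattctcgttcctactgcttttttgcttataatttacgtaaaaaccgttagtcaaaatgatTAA
before psbA (chrPt:1500-1579, minus strand): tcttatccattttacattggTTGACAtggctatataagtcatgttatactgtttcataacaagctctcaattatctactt

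Chloroplast rows held a small share of each library, and this share was lower in prp40c-1. With repeated genes counted once, they took 0.765%, 0.578% and 0.838% of all counts in wild-type libraries 1, 2 and 3, and 0.556%, 0.536% and 0.511% in prp40c-1 libraries 1, 2 and 3. The groups did not overlap, but wild-type library 2 lay close to the mutant libraries. The rRNA genes alone took 0.156%, 0.117% and 0.127% in wild-type plants and 0.0800%, 0.0699% and 0.0683% in prp40c-1, again without overlap. The remaining chloroplast rows took 0.608%, 0.461% and 0.711% in wild-type plants and 0.476%, 0.467% and 0.442% in prp40c-1, and here wild-type library 2 fell inside the range of the mutant. The total in CPM was 7258 ± 1366 (SD, n = 3) in wild-type plants and 5356 ± 177 in prp40c-1, which is 73.8% of wild type. The libraries held 34200225 to 40919516 counts each.

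The wild-type libraries differed among themselves at chloroplast genes more than at other genes. Among the 67 members with a mean of at least 100 counts (repeated genes counted once), the median coefficient of variation was 21.3% over the wild-type libraries and 7.12% over the prp40c-1 libraries, against 8.02% and 6.82% over the 17980 genes of the whole genome at that depth. Wild-type library 2 was the lowest wild-type library for 58 of the 67, and the highest was library 1 for 33 and library 3 for 34. Of all 117 members, 107 lay below the wild-type mean in wild-type library 2, compared with 105, 106 and 101 in prp40c-1 libraries 1, 2 and 3, and the share of all genes below it was between 50.4% and 50.9% in each of the 6 libraries. The median member stood at 80.3% of its wild-type mean in wild-type library 2 and at 77.6%, 74.5% and 72.5% in the mutant libraries.

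**Figure D1:**
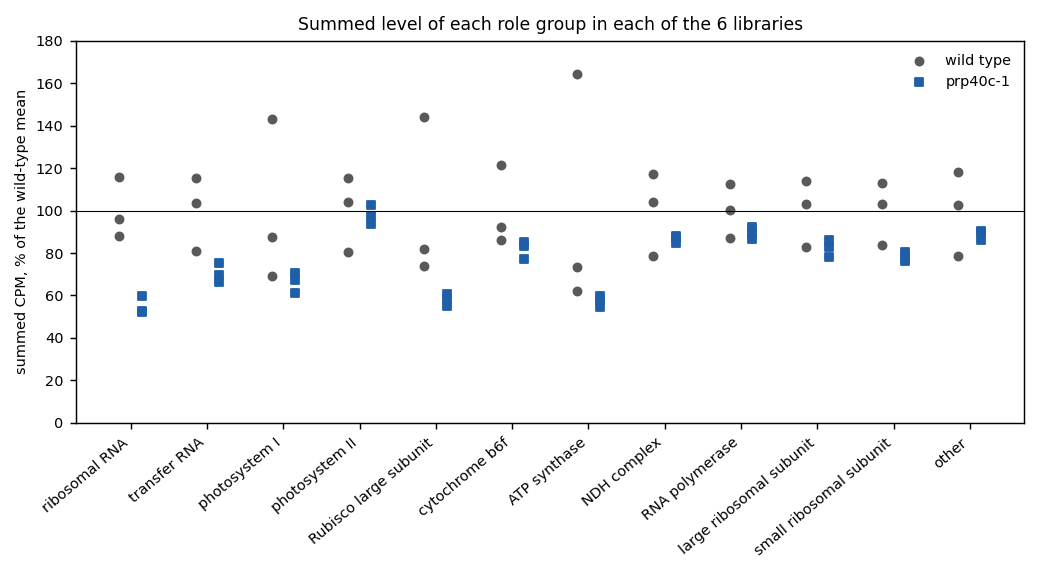
Summed CPM of the chloroplast genes of each role, repeated genes counted once, as a percentage of the wild-type mean; each point is 1 library (grey circles wild type, blue squares prp40c-1). The mutant rRNA sums stood between 52.0% and 59.8%, below all wild-type libraries, while for photosystem II, where psbM weighs heavily, they stood between 93.6% and 102.6%, inside the wild-type range (66.6% to 72.5% without psbM).

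22 of the 117 members (18.8%) were underexpressed in prp40c-1 and 0 were overexpressed, where a call needed an adjusted p (Benjamini-Hochberg over all 22182 genes, edgeR's quasi-likelihood test) below 0.05 and a log2 fold change beyond 0.58. Over the whole genome 0.852% of genes were called lower and 2.81% higher. Counted once, the called genes were 17 of 103: rrn16S, rrn23S, rrn4.5S, trnI, trnA, trnH, psaA, psaB, ycf4, psbA, psbD, rbcL, atpB, atpE, rps14, rps4 and matK. At an unadjusted p below 0.05, 52 members were lower and 1 was higher (psbM), against 2482 and 2963 of all 22182 genes. DESeq2 called 0 members higher. With the adjusted p alone, 35 members were lower and 0 higher, against 4.15% and 7.05% of all genes. The log2 fold change was below 0 for 113 of the 117, against 50.2% of all genes, and its median was −0.38, against −0.001 over all genes. All 3 mutant libraries lay below all 3 wild-type libraries for 43 members, or 36.8%, against 13.5% of all genes, and above them for 0 members, against 15.5%. Counted once, 28 of the 103 were lower at the adjusted p alone and 99 had a log2 fold change below 0. All mutant libraries lay below all wild-type libraries for 35 of the 103. The 5 members that reached the minimum in wild-type plants alone were all below 0, a direction this filter favours, and 0 were called. Among the 112 members at the minimum in both genotypes, 108 were below 0. The number called lower was 12 without wild-type library 1, 28 without wild-type library 2, and 11 and 12 without prp40c-1 libraries 2 and 3. Of the 22 rows, 8 were called in each of the 6 fits that left out 1 library: trnH, rps14 and both copies of rrn16S, rrn23S and trnA. DESeq2 called 17 members lower, and psaA, psaB, psbA, psbD, rbcL, atpB and atpE were not among them (adjusted p between 0.07 and 0.31).

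**Figure D2:**
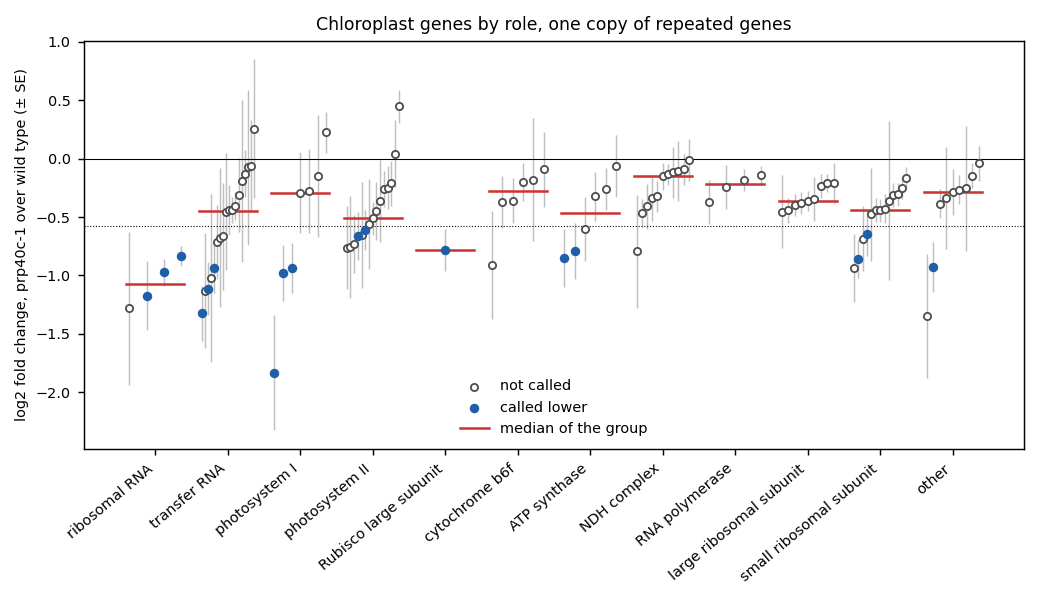
Log2 fold change (prp40c-1 over wild type, ± SE) of each member by role, repeated genes drawn once; filled points were called lower, red lines are group medians and the dotted line is the fold threshold of −0.58. The rRNA genes had the lowest median (−1.07) among groups of more than 1 gene, and the NDH genes the median nearest to 0 (−0.15).

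Of the rRNA operon, which encodes the RNA of the chloroplast ribosome, all members had a log2 fold change below 0, and all but rrn5S were called lower. rrn16S, the RNA of the small ribosomal subunit, was at 425, 285 and 297 CPM in wild-type libraries 1, 2 and 3 and at 179, 159 and 175 CPM in prp40c-1. The mutant values were close to each other and far below the lowest wild-type library (log2 fold change −0.98 ± 0.12 SE, adjusted p = 4.6e-05). rrn23S, the RNA of the large subunit, was at 1108, 879 and 981 CPM in wild-type plants and at 615, 537 and 514 CPM in prp40c-1. It had the smallest adjusted p of the members (log2 fold change −0.83 ± 0.09 SE, adjusted p = 1.3e-05), and its log2 fold change stayed between −0.91 and −0.75 whichever library was left out. rrn4.5S, the short large-subunit RNA printed above, was at 7.33, 5.13 and 2.69 CPM in wild-type plants and at 1.76, 2.29 and 2.67 CPM in prp40c-1. Its groups almost touched, at wild-type library 3 and mutant library 3 (log2 fold change −1.17 ± 0.30 SE, adjusted p = 0.018), and it was called in 3 of the 6 fits that left out a library. rrn5S, at 0.247 to 0.858 CPM in wild-type plants and 0.109 to 0.356 CPM in prp40c-1, was not called (log2 fold change −1.28 ± 0.66 SE, adjusted p = 0.25).

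The tRNA genes inside the rRNA operon fell as well. trnA, which decodes alanine, was at 7.09, 4.86 and 4.25 CPM in wild-type plants and at 2.28, 2.56 and 1.60 CPM in prp40c-1, with no overlap (log2 fold change −1.32 ± 0.24 SE, adjusted p = 0.0017). trnI, which decodes isoleucine, was at 5.09, 4.23 and 3.73 CPM and at 2.34, 2.64 and 1.81 CPM, also with no overlap (log2 fold change −0.94 ± 0.21 SE, adjusted p = 0.01). Counting each gene of the inverted repeat once, 5 of the 6 members of the rRNA operon were called and 0 of the 8 other members of the repeat. Those 8, among them rpl2, rpl23, rps7, rps12, ndhB and the long open reading frame ycf2, had a median log2 fold change of −0.30, against −1.07 in the rRNA operon. Poly(A) purification is a step at which rRNA is depleted, and its part in the rRNA values was not tested.

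Outside the repeat, the tRNA genes went from called to near 0. trnH, the histidine tRNA gene printed above and the first gene of the genome map, was at 4.91, 4.73 and 8.81 CPM in wild-type plants and at 2.86, 2.92 and 2.76 CPM in prp40c-1. All mutant libraries lay below all wild-type libraries and were nearly equal (log2 fold change −1.11 ± 0.23 SE, adjusted p = 0.0049). trnL and trnT (ATCG00390) passed the adjusted p but not the fold threshold (log2 fold changes −0.44 and −0.41). The other single-copy tRNA members were not called, from trnM at −1.13 ± 0.49 SE to trnC at 0.26 ± 0.59 SE. Their depth varied: trnS (ATCG00090) and trnP averaged 187 and 180 counts in wild-type plants, as many as trnI (169), whereas trnfM, trnF, trnW and trnC were at no more than 0.52 CPM in any library.

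Of the photosystem I genes, the pair that encodes the reaction centre fell, as did an assembly factor. psaA was at 37.7, 16.7 and 16.2 CPM in wild-type plants and at 13.02, 10.9 and 11.8 CPM in prp40c-1, and psaB was at 51.7, 23.7 and 25.6 CPM and at 16.7, 16.2 and 19.9 CPM. For both genes the groups did not overlap, and wild-type library 1 stood far above the other libraries (log2 fold changes −0.98 ± 0.24 and −0.94 ± 0.22 SE, adjusted p = 0.015 and 0.011). Without wild-type library 1 the changes were −0.47 and −0.49, short of the fold threshold. ycf4, whose protein helps to assemble photosystem I, was at 1.33, 0.657 and 1.48 CPM in wild-type plants and at 0.472, 0.164 and 0.326 CPM in prp40c-1. This was the lowest log2 fold change of all members (−1.84 ± 0.49 SE, adjusted p = 0.025) and came from an average of 45.3 counts in wild-type plants, and it was called in 2 of the 6 fits that left out a library. The other photosystem I members did not pass the test: ycf3 (−0.29), psaC (−0.28), psaI (−0.15) and psaJ (0.23).

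The 15 photosystem II members summed to 97.9% of wild type, but psbM held 131 of the 312 CPM of this sum in wild-type plants and 178 of 306 CPM in prp40c-1. The other 14 members summed to 186, 132 and 227 CPM in wild-type plants and to 130, 121 and 132 CPM in prp40c-1, or 70.3% of wild type, with wild-type library 2 just above the mutant libraries. Of the 15 members, 13 had a log2 fold change below 0, and the median was −0.51. psbA, which encodes the D1 protein of the reaction centre, was at 28.0, 13.2 and 15.8 CPM in wild-type plants and at 12.1, 10.3 and 13.6 CPM in prp40c-1. The groups overlapped, mutant library 3 being above wild-type library 2, and the call was at the threshold (log2 fold change −0.66 ± 0.21 SE, adjusted p = 0.0496), with −0.28 and no call without wild-type library 1. psbD, which encodes the D2 protein, was at 54.9, 47.2 and 94.0 CPM and at 44.2, 40.6 and 43.5 CPM, with wild-type library 3 standing apart (log2 fold change −0.61 ± 0.17 SE, adjusted p = 0.033, and −0.26 without that library). psbC, an antenna protein gene that overlaps psbD, passed the adjusted p (0.03) but not the fold threshold (−0.51). psbM, a small subunit at the contact between photosystem monomers, was the member with the highest log2 fold change. It was at 175, 119 and 97.7 CPM in wild-type plants and at 174, 171 and 189 CPM in prp40c-1, so that wild-type library 1 lay within the mutant range. The change of 0.45 ± 0.14 SE had an adjusted p of 0.055, and without wild-type library 1 it was 0.71 with an adjusted p of 0.00021, the only call in the upward direction in any fit tried here.

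**Figure D3:**
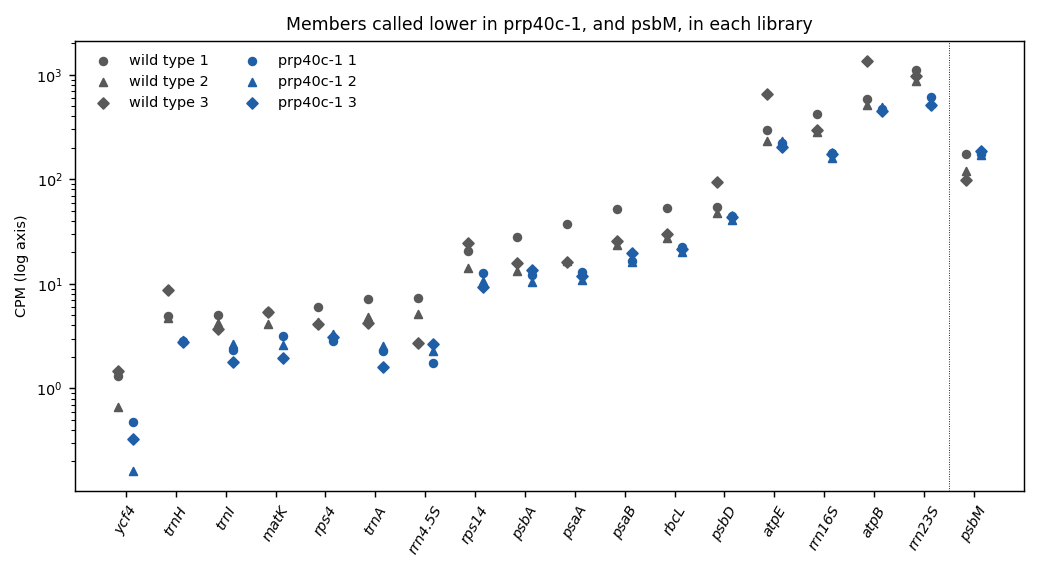
CPM on a log axis in each library for the 17 genes called lower, repeated genes drawn once, and for psbM right of the dotted line; grey marks are wild type, blue marks prp40c-1, and the marker shape gives the library number. Wild-type library 1 stood apart at psaA, psaB, psbA and rbcL, and wild-type library 3 at atpB, atpE, psbD and trnH.

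rbcL, the large subunit of the carbon-fixing enzyme Rubisco, was at 53.3, 27.4 and 30.2 CPM in wild-type plants and at 22.4, 20.3 and 21.5 CPM in prp40c-1. The mutant libraries were all lower and nearly equal (log2 fold change −0.79 ± 0.18 SE, adjusted p = 0.01), and without wild-type library 1 the change was −0.43. Of the 6 ATP synthase members, atpB and atpE, which encode the beta and epsilon subunits of the catalytic part and overlap in the genome, fell. atpB was at 581, 519 and 1350.0 CPM in wild-type plants and at 474, 488 and 455 CPM in prp40c-1. No mutant library reached the wild-type range, but wild-type library 3 stood far above the other libraries (log2 fold change −0.79 ± 0.24 SE, adjusted p = 0.044), and without it the change was −0.22 with an adjusted p of 0.047. atpE followed the same order, with 295, 234 and 661 CPM against 224, 232 and 203 CPM (log2 fold change −0.85 ± 0.25 SE, adjusted p = 0.038), and without wild-type library 3 its change was −0.27 with an adjusted p of 0.065. Both atpB and atpE were called in 2 of the 6 fits that left out a library. The other ATP synthase members, atpH, atpA, atpI and atpF, lie in another operon and were between −0.61 and −0.07, none called. The 6 cytochrome b6f members, which carry electrons between the photosystems, gave 0 calls and a median of −0.28.

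Of the 26 rows of ribosomal protein genes, which include second copies of the inverted repeat, 11 passed the adjusted p, all lower in prp40c-1. Counted once, these were 4 of 9 large-subunit members and 5 of 13 small-subunit members, against 4.15% of all genes. All 11 rows of the large subunit (rpl genes) and all 15 of the small subunit (rps genes) had a log2 fold change below 0, with medians of −0.36 and −0.43, and they ran from −0.45 to −0.21 and from −0.94 (rps2, not called) to −0.16. Only 2 passed the fold threshold as well. rps14 was at 20.5, 14.2 and 24.4 CPM in wild-type plants and at 12.7, 10.5 and 9.37 CPM in prp40c-1, with no overlap (log2 fold change −0.86 ± 0.16 SE, adjusted p = 0.0028). rps4 was at 5.98, 4.31 and 4.15 CPM and at 2.83, 3.30 and 3.11 CPM, again with no overlap (log2 fold change −0.64 ± 0.20 SE, adjusted p = 0.046), and it was called in 1 of the 6 fits that left out a library. The abundant genes of the large ribosomal protein cluster moved by less: rps3 was at 456, 343 and 468 CPM against 332, 309 and 292 CPM (−0.44 ± 0.10 SE), and rpl16 at 573, 469 and 582 CPM against 480, 474 and 449 CPM (−0.21 ± 0.08 SE, adjusted p = 0.11). rps3 overlaps rpl22 in the genome, and reads in the overlap may have been given to either row.

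The genes of the PEP core, rpoA, rpoB, rpoC1 and rpoC2, gave 0 calls, with log2 fold changes between −0.37 and −0.14. rpoB, the first gene of its operon, was at 22.9, 19.5 and 21.2 CPM in wild-type plants and at 18.2, 18.2 and 19.5 CPM in prp40c-1, where the groups met at 19.5 CPM (−0.18 ± 0.09 SE, adjusted p = 0.24). The 12 NDH rows, which encode a complex that feeds electrons back to the plastoquinone pool, also gave 0 calls. ndhH alone passed the adjusted p (−0.47 ± 0.12 SE, adjusted p = 0.023). Among the remaining members, matK, which encodes a protein for chloroplast splicing inside the intron of trnK, was at 5.33, 4.13 and 5.33 CPM in wild-type plants and at 3.18, 2.62 and 1.96 CPM in prp40c-1. Its groups were well apart (log2 fold change −0.93 ± 0.21 SE, adjusted p = 0.0099), and trnK itself changed by −0.66 ± 0.46 SE (adjusted p = 0.41). ccsA, needed to attach haem to cytochromes, had a low log2 fold change (−1.35 ± 0.53 SE) at fewer than 1 CPM in every library and was not called (adjusted p = 0.12).

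The 10 genes with the highest log2 fold changes were psbM, trnC, psaJ, psbT, ndhF, cemA, trnG, atpF, trnF and ndhB, and they included 0 genes of rRNA, ribosomal proteins, Rubisco, the RNA polymerase or the cytochrome b6f complex. ycf1 (ATCG01130), which encodes a protein of the chloroplast import machinery, lay a little below them in this order and was among the most abundant rows, with 1012, 664 and 844 CPM in wild-type plants and 761, 779 and 735 CPM in prp40c-1. Its mutant libraries all lay inside the wild-type range (−0.15 ± 0.11 SE). ndhF was at 15.1, 8.65 and 14.1 CPM and at 13.9, 13.6 and 9.99 CPM (−0.01 ± 0.18 SE), and cemA, which encodes an inner envelope protein, at 11.9, 7.86 and 11.6 CPM and at 11.1, 9.67 and 9.72 CPM (−0.04 ± 0.15 SE). psaJ, a small photosystem I subunit, was at 16.8, 10.6 and 21.9 CPM and at 19.1, 18.2 and 20.5 CPM (0.23 ± 0.18 SE). Both copies of ndhB (−0.09), and trnF, atpF, trnG, psbT and trnC, lay between −0.09 and 0.26, none called. Of these 10 genes, 9 took the other sign in at least 1 fit without a library (psbM was the exception), so the order at this end of the list is not set by these data.

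Per length, the order of levels did not follow the order of change. Divided by exon length, rpl16 was at 1326 CPM per kb in wild-type plants, psbM at 1243, rpl32 at 1177, atpE, which was called lower, at 994 and rpl14 at 906, whereas rbcL was at 25.7 and psbA at 17.9 CPM per kb. In prp40c-1, psbM was at 1695 CPM per kb and rpl16 at 1147, so that psbM stood above rpl16 in the mutant. Across the 80 protein-coding members counted once, Spearman's correlation of the log2 fold change was −0.32 with GC content, −0.06 with exon length and 0.15 with the wild-type level. These points are genes of the same libraries and are not independent. The motif TTGACA, searched on the coding strand in the 250 bases before and 50 bases after the start of each gene, was found in 12 of 101 member windows (11.9%) and in 15 of 113 windows of all chloroplast rows (13.3%). Before psbA it began 115 bases upstream of the coding start, as printed above. The median log2 fold change was −0.32 for the 12 members with the motif and −0.40 for the other members. Both rows of ycf1 (ATCG01000 and ATCG01130) are among the 12, with the motif 115 bases upstream in each. The same stretch may therefore have been counted at both rows.

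Operons differed in how many of their genes were called; differences between genes of an operon were not tested. In psaA-psaB-rps14 all 3 genes were called, from −0.98 at psaA to −0.86 at rps14. In atpB-atpE both genes were called, and psbD-psbC ran from −0.61 to −0.51. In the long run of genes from rpoB to atpA, listed here as an operon, the log2 fold change was −0.18 at rpoB and −0.32 at atpA. The lowest and highest genes of this run were rps2 (−0.94 ± 0.29 SE, adjusted p = 0.052) and atpF (−0.07 ± 0.27 SE). Whether all genes of this run share a transcript was not tested. The operon from psbB to petD ran from −0.26 at psbB to −0.36 at petD with 0.04 ± 0.29 SE at psbT between them. From ndhC to ndhJ the change was −0.41 and −0.13 at the ends, from psbE to psbJ −0.45 and −0.56, and from ndhH to ndhD −0.47 and −0.34. None of these last genes was called, and adjacent or overlapping genes share reads at their borders.

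**Figure D4:**
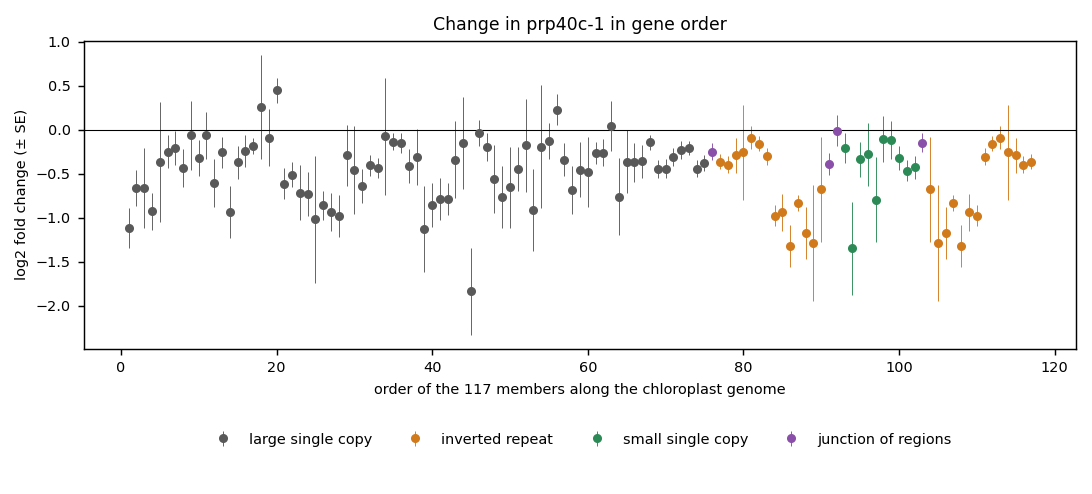
Log2 fold change (± SE) of the 117 members in their order along the chloroplast genome, coloured by region; each gene of the inverted repeat appears at both copies with nearly the same counts. The rRNA operon forms the lowest run inside each copy of the repeat, and the psaA-psaB-rps14 and atpB-atpE operons form low runs in the large single-copy region.

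Introns were measured by reads that cross an intron border unspliced and reads that join both exons. The table of intron reads held 24 rows of chloroplast introns, and spliced reads were given for only 6 of them. These 6 introns were in atpF, rpoC1, clpP, petB, petD and ndhA. All begin with GT and end with AT on the coding strand, which reads AT to AC on the opposite strand. For the trnK intron, with the same ends, and the 17 rows with other ends, no number of spliced reads was given. These rows therefore do not show that splicing was absent. The first and last bases of the petB, rpoC1 and ndhA introns are printed with the group II intron start and the final dinucleotide in capitals. Spliced reads were given for 6 of the 7 rows that begin with GT and end with AT, and for 0 of the 17 other rows. The exception among the 7 was trnK. Introns of ndhB and rps12 have the same start but end with AC, and they are among the 17. Why spliced reads were given for some rows only was not tested.
petB start (intron at chrPt:74847-75650, plus strand): GTGTGacttgttagaattga
petB end: cttggtttacctatctcaAT
rpoC1 start (intron at chrPt:21862-22652, minus strand): GTGTGatttgatcgaaattt
rpoC1 end: atagtggaccctatcccaAT
ndhA start (intron at chrPt:120377-121456, minus strand): GTGCGattcgttgaaacaga
ndhA end: atgttctcgccgactaggAT

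The unspliced share of these 6 introns, border reads over border reads plus 2 times the spliced reads, did not differ between genotypes beyond the spread of the libraries. For petB it was 35.7%, 39.4% and 28.8% in wild-type plants and 38.5%, 58.1% and 53.2% in prp40c-1, overlapping at 1 library of each (log2 change of the unspliced to spliced ratio 0.93 ± 0.73 SE, adjusted p = 0.68). For atpF it was 49.1%, 61.3% and 39.6% and 38.8%, 19.6% and 44.0%, in the opposite direction (−0.97 ± 0.73 SE, adjusted p = 0.67). For ndhA the shares ran from 30.3% to 65.0% in wild-type plants and from 47.1% to 81.1% in prp40c-1. Of the 6 introns, 5 had a log2 change above 0. An unadjusted p below 0.05 in edgeR's test was reached by 0 of the 6, against 10.6% of 13735 introns of the whole genome. At an adjusted p below 0.15 and a log2 change beyond 0.58, 0 of the 6 were called. Under that rule 0% of the 13735 introns were called. Each intron rested on 32 to 89 spliced reads summed over a genotype, so changes smaller than the errors above were not detectable at this depth. Border reads alone, in all 19 chloroplast introns counted once, were lower in all mutant libraries than in all wild-type libraries for 5 introns, or 5 of 19 against 6.2% of 19314 introns of the whole genome with a mean of at least 5 border reads in a genotype. They were those of trnA (37.4% of wild type), trnK (50.9%), trnI (58.1%), ndhB (82.6%) and the intron of clpP for which no spliced reads were given (58.3%). The gene rows of trnA and trnI stood at 39.8% and 52.0% of wild type. Those of trnK, ndhB and clpP stood at 63.1%, 94.1% and 83.0%.

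**Figure D5:**
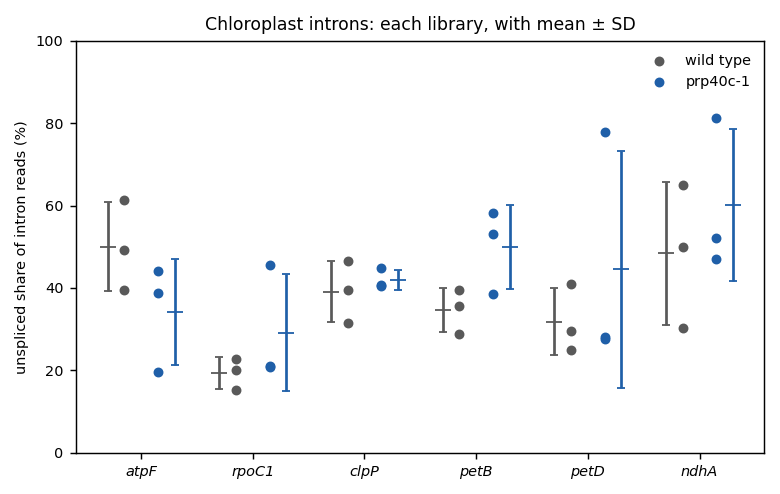
Unspliced share of intron reads (%) for the 6 chloroplast introns with spliced reads; points are libraries (grey wild type, blue prp40c-1) and bars are mean ± SD of 3 libraries. The mean for atpF was 50.0% in wild-type plants and 34.1% in prp40c-1, the opposite direction to petB (34.6% and 49.9%), and the bars are wide.

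Nuclear genes that serve the chloroplast were followed by lists of shared function. Over all genes, 0.852% were called lower and 2.81% higher, and 4.15% were lower and 7.05% higher at the adjusted p alone. Of 38 nuclear genes for photosystem and light-harvesting proteins, 0 were called lower and 1 higher (LHCB2.3, a light-harvesting protein of photosystem II, 0.63 ± 0.07 SE), 11 were higher and 0 lower at the adjusted p alone, and the median log2 fold change was 0.13. Of 21 nuclear genes of chloroplast transcription, 1 was called lower (FLN2, a PEP-associated protein, −0.59 ± 0.08 SE), and 10 were lower and 2 higher at the adjusted p alone, with a median of −0.23. The 10 were PEP-associated proteins, among them PTAC2 (−0.54 ± 0.07 SE), TRXZ (−0.55 ± 0.10 SE) and FLN1 (−0.46 ± 0.08 SE), and the 2 were the sigma factors SIG1 (0.34 ± 0.09 SE) and SIG3 (0.22 ± 0.07 SE), proteins that direct PEP to promoters. Of 19 nuclear genes of chloroplast RNA processing and stability, 0 were called, and 11 were lower and 1 higher at the adjusted p alone, with a median of −0.25. The lower ones included CP29B and CP29A, RNA-binding proteins of the chloroplast (−0.48 ± 0.07 and −0.43 ± 0.06 SE), PRORP1, which trims tRNA ends (−0.45 ± 0.07 SE), and PNP, the enzyme that degrades chloroplast RNA from its end and adds tails to it (−0.24 ± 0.07 SE).

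The makeup of the seedlings and the other organelle were followed by marker lists. The 10 leaf markers summed to 34734 to 36779 CPM in wild-type plants and 34485 to 35759 CPM in prp40c-1, with 0 called and 0 of 10 at 0 counts. Their median of −0.04 held members that went both ways. At the adjusted p alone, 4 were lower (CA1, RCA, GAPB and FBA1, enzymes of carbon fixation or their helpers, −0.33 to −0.25). At that threshold 2 were higher (LHCB1.1 and LHCB2.1, which the light-harvesting list also holds). All mutant libraries lay below all wild-type libraries for 5 of the 10, against 13.5% of all genes, and above them for 2, against 15.5%. The 11 root markers summed to 2556 to 2828 CPM and 2749 to 2981 CPM, with 0 called, 0 lower or higher at the adjusted p alone, 0 of 11 at 0 counts, and a median of −0.01. The part of seedling makeup in the chloroplast values was not tested beyond these sums. Mitochondrial rows were also lower in prp40c-1: 6 of 44 tested were called lower and 0 higher, against 0.852% and 2.81% of all genes. Their median was −0.67. Their share of counts was 0.0452% ± 0.0049 (SD, n = 3) in wild-type plants and 0.0253% ± 0.0030 in prp40c-1, without overlap. Wild-type library 2, the lowest wild-type library at chloroplast genes, was the highest at mitochondrial rows (481 CPM, against 472 and 399).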

How the data were processed

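Whole-seedling poly(A)-purified RNA from 6 samples, 3 wild-type and 3 prp40c-1 biological replicates, was sequenced in read pairs. Per the labels, the authors aligned reads with TopHat2 2.1.1 to TAIR10 and used SAMtools 1.3, and they deposited raw counts per gene and counts of border and spliced reads per intron. The strandedness of the libraries and the treatment of reads with several positions are not given in the sources used here. The deposited pooled splicing ratios were not used.

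Gene counts were tested with edgeR 4.0.16 in R 4.3.3 (TMM scaling, quasi-likelihood test, genotype as the only term) on the 22182 genes averaging 10 counts or more in either genotype, and CPM were computed with the TMM factors. Introns were tested by edgeR on the border to spliced ratio with a mean of at least 5 reads of each kind. The intron table names 91086 introns with all counts, of which 13735 passed. Both procedures were tested on simulated data. For introns the planted changes were larger than those estimated in the chloroplast, so that test does not measure the power to detect changes of this size. Same-numbered samples of the genotypes were not paired (correlations of their deviations 0.0077, 0.0064 and 0.035).

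Named are all called members, the 10 lowest and 10 highest log2 fold changes, the 5 highest levels and the ends of 8 operons. Rows were named by coordinates from RefSeq (131 of 133). Alternatives were other scalings, nuclear scaling, DESeq2 1.42.0, no filter, no fold threshold, each library left out, a replicate block, and second repeat copies left out. The members and the lists were chosen with earlier results of these data known.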

Additional observations from a re-analysis of the deposited data

How the results depend on the processing

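The number of members called lower was 22, and it was 22 with relative log expression factors, column totals or nuclear scaling, 17 with DESeq2 (15 of them shared; atpB, atpE, psaA, psaB, psbA, psbD and rbcL were lost, psbZ and rps2 gained), 24 without the filter, 17 with second repeat copies left out, and 35 without the fold threshold. Leaving out 1 library gave 11 to 28 called lower (11 without prp40c-1 replicate 2, 12 without wild-type replicate 1 or prp40c-1 replicate 3) and 0 to 1 called higher, a median log2 fold change of −0.51 to −0.30, a chloroplast total of 66.9% to 80.5% of wild type, and 0 introns called. The median of the chloroplast RNA processing list was −0.28 to −0.22. With both repeat copies summed, an alternative added after seeing the data, the total was 71.5% of wild type. With the replicate block, 21 rows were called lower and 0 higher (20 shared with the fit without it), psbD and rps4 being lost, and the block changed no intron call. DESeq2 called 112 introns and the stricter minimum 137 over the whole genome, 0 of them in the chloroplast.

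Of 630 alternative values of the 49 named rows, 553 kept their direction and call, 51 lost the call, 6 gained it and 20 changed sign; the cause was not tested. The log2 fold change ran, over the fits without 1 library, from −0.35 to 0.098 for trnG, −0.52 to 0.056 for atpA, −0.31 to 0.40 for atpF, −0.064 to 0.95 for trnC, −0.66 to 0.41 for trnF, −0.21 to 0.062 for cemA, −0.0080 to 0.49 for psaJ, −0.16 to 0.34 for psbT, −0.18 to 0.021 for ndhB, −0.22 to 0.13 for ndhF and −0.29 to 0.0047 for ycf1 (ATCG01130). With the block, atpF was at 0.019 and ndhF at 0.0072. Low counts limit members such as trnfM, trnF, trnW and trnC, and 3 libraries of each genotype limit all members.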
